A study of Mus musculus with 4 samples.

Results

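Necroptosis and death receptor signalling in the mouse kidney were described through 7 genes, Ripk1, Ripk3, Mlkl, Cflar, Fadd, Tradd and Cyld, after cisplatin and after saline. The genes were chosen by name from the deposited count table, and each symbol stood on a single row, so they made up 7 of its 29190 rows. All 7 were among the 17419 genes that passed the filter on low counts. Kidneys came from male C57 mice aged 8 weeks. One group of 2 libraries came from mice injected with cisplatin at 30 mg/kg, a platinum drug that damages DNA and is taken up by kidney tubule cells, and the other group of 2 libraries from mice injected with physiological saline. The labels' protocols describe kidneys collected 24 h or 48 h after cisplatin. The sources used here do not say which of these times the cisplatin libraries represent, or whether 1 library holds RNA of 1 mouse or of more. Counts summed to 20662475 and 23150274 after cisplatin and to 21483564 and 27122403 after saline.

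Necroptosis is a regulated form of necrosis in which the membrane of a dying cell is breached from within. When a death receptor such as the TNF receptor is engaged, the adaptors Tradd and Fadd and the kinase Ripk1 are brought together, and the deubiquitinase Cyld trims the ubiquitin chains that hold Ripk1 in its survival role. Fadd then recruits caspase-8, whose activity is tuned by its inactive relative cFLIP, the product of Cflar. Where caspase-8 is held back, Ripk1 or the nucleic acid sensor Zbp1 engages the kinase Ripk3, which phosphorylates the pseudokinase Mlkl, and Mlkl then permeabilizes the plasma membrane. Both Ripk3 and Mlkl have been studied in mouse models of toxic and ischaemic injury of the tubule.

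The promoters of the 3 genes that rose in these data are shown because transcript abundance, the quantity measured, is set in part there. They are RefSeq windows of 300 bases on GRCm38.p6, each read on the strand of its gene, with 250 bases before and 50 after the annotated start. The Ripk3 window is chr14:55788808-55789107 (minus strand), the Mlkl window chr8:111338156-111338455 (minus strand) and the Cflar window chr1:58711241-58711540 (plus strand). Capitals mark every match to the motifs described after the sequences.
Ripk3: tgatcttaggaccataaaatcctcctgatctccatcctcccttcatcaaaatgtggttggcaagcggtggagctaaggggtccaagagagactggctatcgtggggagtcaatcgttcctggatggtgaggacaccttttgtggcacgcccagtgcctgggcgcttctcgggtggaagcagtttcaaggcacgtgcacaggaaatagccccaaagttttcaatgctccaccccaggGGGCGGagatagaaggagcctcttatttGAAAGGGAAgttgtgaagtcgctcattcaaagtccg
Mlkl: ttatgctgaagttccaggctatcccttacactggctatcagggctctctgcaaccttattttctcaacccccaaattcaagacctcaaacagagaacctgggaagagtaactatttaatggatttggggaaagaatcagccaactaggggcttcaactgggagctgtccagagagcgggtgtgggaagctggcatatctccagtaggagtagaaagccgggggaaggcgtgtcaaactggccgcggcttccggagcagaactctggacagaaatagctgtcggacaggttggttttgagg
Cflar: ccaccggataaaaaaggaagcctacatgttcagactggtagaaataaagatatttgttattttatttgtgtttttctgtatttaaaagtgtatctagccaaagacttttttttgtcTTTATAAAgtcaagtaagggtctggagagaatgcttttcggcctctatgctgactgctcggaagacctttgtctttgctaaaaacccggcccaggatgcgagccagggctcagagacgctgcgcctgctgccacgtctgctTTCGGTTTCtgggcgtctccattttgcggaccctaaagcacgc

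Both strands were searched for 8 motifs. They were an AP-1 site spelled TGANTCA, a STAT site of the GAS type spelled TTCNNNGAA, and the core of the interferon response element, spelled GAAANNGAA. They also included an SP1 box, spelled GGGCGG, and the kappaB and p53 half-site motifs. The last were the CCAAT box, which the nuclear factor NF-Y is known to bind, and the core promoter element spelled TATAAA. The Ripk3 window held an SP1 box from position -14 to -9 and an interferon response core from position 15 to 23, counted from the start site. The Cflar window held an interferon response core on the opposite strand, from position 8 to 16, and TATAAA elements on both strands that overlap each other between positions -134 and -127. The Mlkl window held none of the 8 motifs. The interferon response core was present in 8.56% of all 32851 promoter windows of that length in the table, and in 4 of the 7 windows available for 6 of the genes, namely those of Ripk3, Cflar and Cyld and 1 of the 2 windows of Ripk1. The SP1 box was present in 35.7% of all windows and in 5 of the 7, the TATAAA element in 13.6% and in 1, the CCAAT box in 37.4% and in 1, and the GAS motif in 8.30% and in 1. The AP-1 site was present in 7.81% of all windows and in none of the 7. The kappaB motif was present in 8.46% of all windows and in that of Cyld, and the p53 half-site was present in 8.36% of all windows and in none of these 7. These matches are descriptions of the letters in the windows.

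Cisplatin kidneys held several times more transcript of the necroptosis kinase Ripk3 and of its substrate Mlkl, while the other 5 genes differed by less than 1.5-fold on the main scale used. On CPM (a gene's counts as a share of its library, times a constant) scaled by TMM, a factor per library that sets the bulk of genes equal between libraries, 3 genes were called higher (Ripk3, Mlkl and Cflar), 3 lower (Ripk1, Cyld and Tradd), and Fadd did not pass. A call is an adjusted p under 0.05 by edgeR's quasi-likelihood test with Benjamini-Hochberg adjustment over all tested genes. Calls were common in this comparison, since 73.6% of the tested genes were called, 37.2% higher and 36.4% lower, so 6 calls among 7 genes is near the level of all genes. The median log2 fold change of the 7 genes was 0.00, and that of all tested genes was 0.04. The size of the changes set Ripk3 and Mlkl apart from the others. Against a minimum change of 1.5-fold (glmTreat, same adjustment), Ripk3 and Mlkl were the 2 genes called, whereas 42.5% of all tested genes were.

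**Figure D1:**
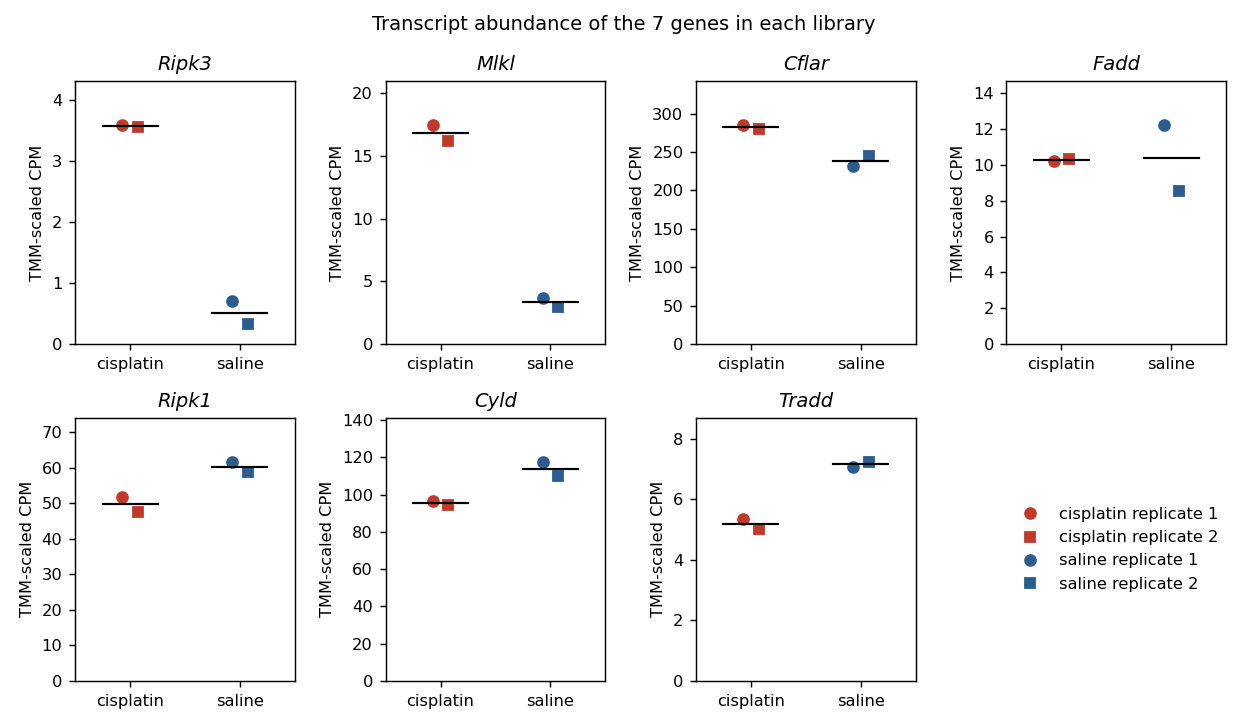
TMM-scaled CPM of each of the 7 genes (vertical axes, each starting at 0) in the 2 cisplatin and the 2 saline libraries, with a bar at the group mean. Both cisplatin libraries lie above both saline libraries for Ripk3, Mlkl and Cflar and below them for Ripk1, Cyld and Tradd, and the Fadd values overlap.

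Ripk3 (ENSMUSG00000022221.11, chromosome 14, 55784995 to 55788865, minus strand, GRCm38), the kinase at the centre of the necrosome, was the scarcest of the 7 transcripts and the one that rose the most. It had 3.59 and 3.55 TMM-scaled CPM in the cisplatin libraries, against 0.704 and 0.328 in the saline libraries. The groups did not overlap, and the saline libraries differed from each other more than the cisplatin libraries did. The saline values rested on 13 and 8 counts, with exact 95% Poisson intervals of 6.92 to 22.2 and 3.45 to 15.8 counts, against 85 and 92 counts in the cisplatin libraries. These intervals cover counting error only. The log2 fold change was 2.84 (SE 0.33, 95% interval 2.14 to 3.54), or 7.17-fold (edgeR quasi-likelihood, Benjamini-Hochberg adjusted p = 2.47e-07). In all, 3.57% of the tested genes had a larger log2 fold change. The filter was reached in both cisplatin libraries and in 1 of the 2 saline libraries, so Ripk3 entered the test through its cisplatin values. That way of entry favours a rise, and the call of Ripk3 is to be read with this limit. Leaving out a library moved the log2 fold change, to 3.41 without saline replicate 1 and to 2.33 without saline replicate 2.

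Mlkl (ENSMUSG00000012519.12, chromosome 8, 111311797 to 111338177, minus strand), the executioner that breaches the membrane once Ripk3 has phosphorylated it, was nearly as much changed and rested on far more counts. It had 17.5 and 16.2 TMM-scaled CPM in the cisplatin libraries (414 and 420 counts), against 3.68 and 2.99 in the saline libraries (68 and 73 counts). Both cisplatin values stood well clear of both saline values. Its log2 fold change was 2.35 (SE 0.15, 95% interval 2.04 to 2.65), or 5.09-fold (edgeR quasi-likelihood, adjusted p = 1.73e-11), and 5.04% of the tested genes had a larger one. The 95% intervals of Ripk3 and Mlkl overlap, and whether they rose by different amounts was not tested. Both genes were called higher under all 17 alternative settings, with log2 fold changes of 0.98 to 3.41 for Ripk3 and 1.80 to 2.71 for Mlkl. The settings reuse the same libraries, so for Ripk3 these calls are no support beyond the main test and its limit.

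Ripk3 and Mlkl are also transcribed in leukocytes, and marker transcripts of several other cell types moved in the same libraries. The list of macrophage and monocyte markers had 15 genes, of which 12 were called higher and 1 lower (Csf1r, not called lower with library size alone), and their summed level was 325 to 341 TMM-scaled CPM after cisplatin and 121 to 130 after saline. Lyz2, a lysozyme gene of myeloid cells, stood at 43.4 ± 2.4 and 15.2 ± 0.00244 CPM, and Cd68, a macrophage lysosomal gene, at 69.7 ± 8.92 and 1.62 ± 0.0851 CPM (mean ± SD, n = 2, cisplatin and then saline). Csf1r, the most abundant gene of this list after saline, stood at 31.15 ± 2.79 and 37.88 ± 2.53 CPM in the same order. Cx3cr1 and Ccr2 did not pass, and Cd68 had the largest rise of the list. All 6 neutrophil markers tested rose, with sums of 31.6 to 34.3 CPM after cisplatin and 2.91 to 4.17 CPM after saline. Apart from Cxcr2, they reached the filter on low counts in at most 1 saline library. They thus entered the test through their cisplatin values, and their rise was close to fixed by the filter. Of the 10 neutrophil markers in the table, Ly6g, Ngp, Camp and Mpo had no count in either saline library, and Ly6g had 6 and 8 counts in the cisplatin libraries. Among genes listed as lymphocyte markers 3 of 7 tested rose and none fell, with sums of 25.8 to 26.4 and 21.2 to 21.4 CPM. Most of these sums came from Ptprc, a gene of leukocytes in general, at 20.62 ± 0.536 and 17.06 ± 1.32 CPM (log2 fold change 0.27, SE 0.10). Cd4 and Cd79a also rose, but entered the test through their cisplatin values. Cd3e, Cd3g, Cd8a and Klrb1c did not pass. Endothelial markers rose in 8 of 10 cases and fell in 1 (980 to 997 CPM after cisplatin, 702 to 710 CPM after saline), and fibroblast and mural markers rose in 8 of 9 (1501 to 1503 and 464 to 479 CPM). Of all tested genes, 37.2% were called higher and 36.4% lower. In tissue RNA a change in the number of cells of a type and a change in RNA per cell cannot be told apart, and the part of these cells in the rise of Ripk3 and Mlkl was not tested.

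The labelled tissue was checked by 15 epithelial genes of the kidney, all of which were detected in all 4 libraries. Their summed level was 4707 to 4801 TMM-scaled CPM after cisplatin and 20020 to 20420 after saline. Of the 15 genes 10 were called lower and 5 higher, beside 36.4% and 37.2% of all tested genes. Lrp2, the endocytic receptor megalin of the proximal tubule, stood at 1226 ± 42.1 CPM after cisplatin and 9114 ± 166 CPM after saline (SD, n = 2).

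Cflar (ENSMUSG00000026031.13, chromosome 1, 58711508 to 58758884, plus strand), which encodes cFLIP, was the most abundant of the 7 genes and rose slightly. It had 285 and 280 TMM-scaled CPM in the cisplatin libraries, against 232 and 245 in the saline libraries. The groups did not overlap, and the gap between them was wider than the gap within either. This gave a log2 fold change of 0.24 (SE 0.06, 95% interval 0.12 to 0.37; edgeR quasi-likelihood, adjusted p = 0.00101), an increase of 1.18-fold. Without saline replicate 1 the same test gave a log2 fold change of 0.19 and an adjusted p of 0.058, so the call was lost without that library. Scaled by library size alone the log2 fold change was 0.61 (edgeR quasi-likelihood, adjusted p = 1.65e-08). Caspase-8, the protease that cFLIP pairs with, was encoded by a transcript that rose more, since Casp8 stood at 57.0 ± 0.388 CPM after cisplatin and 38.6 ± 4.2 CPM after saline (SD, n = 2; log2 fold change 0.56, SE 0.08; edgeR quasi-likelihood, adjusted p = 1.61e-06).

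Fadd (ENSMUSG00000031077.7, chromosome 7, 144577318 to 144582463, minus strand), the adaptor that joins death receptors to caspase-8, did not pass the test. It had 10.2 and 10.3 TMM-scaled CPM in the cisplatin libraries, against 12.2 and 8.56 in the saline libraries. The cisplatin values agreed closely and lay between the saline values. Its 95% interval of -0.30 to 0.30 on the log2 scale leaves room for changes of that size in either direction (edgeR quasi-likelihood, adjusted p = 1). The antisense gene Faddos shares 239 bases of exon with Fadd on the opposite strand and had 8 and 12 counts in the cisplatin libraries, against 4 and 3 in the saline libraries. The libraries were directional, but the sources used here do not say whether the counting used strand.

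Tradd (ENSMUSG00000031887.11, chromosome 8, 105258286 to 105264609, minus strand), the adaptor that binds the TNF receptor first, was lower after cisplatin on the TMM scale. It had 5.36 and 5.01 TMM-scaled CPM in the cisplatin libraries, against 7.09 and 7.25 in the saline libraries. The groups were separate on this scale, with little spread within each. Its log2 fold change was -0.47 (SE 0.16, 95% interval -0.80 to -0.14; edgeR quasi-likelihood, adjusted p = 0.0121). The call was lost without cisplatin replicate 2 (log2 fold change -0.42, adjusted p = 0.0733), with upper-quartile scaling (-0.35, adjusted p = 0.0509) and in DESeq2 (-0.49, adjusted p = 0.101). The direction was negative under all 17 alternatives.

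Ripk1 (ENSMUSG00000021408.12, chromosome 13, 34002363 to 34037147, plus strand), the kinase and scaffold that decides between survival and death signalling at the TNF receptor, was also lower on the TMM scale. It had 51.7 and 47.6 TMM-scaled CPM in the cisplatin libraries, against 61.7 and 58.9 in the saline libraries. No cisplatin value reached a saline value. The log2 fold change was -0.28 (SE 0.07, 95% interval -0.42 to -0.14; edgeR quasi-likelihood, adjusted p = 0.000847). Serpinb6a, a protease inhibitor gene on the opposite strand, shares 241 of the 8344 annotated exon bases of Ripk1 and had 2579 and 2462 counts in the cisplatin libraries, against 627 and 891 in the saline libraries. Gm17084, a pseudogene on the same strand, shares 511 of those bases and had 19 and 35 counts in the cisplatin libraries, against 13 and 19 in the saline libraries. Reads from the bases shared with Gm17084 cannot be told apart by strand, nor those shared with Serpinb6a if the counting ignored strand, and the size of either effect on Ripk1 was not tested.

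Cyld (ENSMUSG00000036712.12, chromosome 8, 88697028 to 88751945, plus strand), the deubiquitinase that acts on Ripk1, followed the same course. It had 96.5 and 94.2 TMM-scaled CPM in the cisplatin libraries, against 118 and 110 in the saline libraries. The groups did not overlap. The log2 fold change was -0.25 (SE 0.06, 95% interval -0.37 to -0.13; edgeR quasi-likelihood, adjusted p = 0.000518). Over the 7 genes the groups did not overlap in 6, and among all tested genes this was so in 86.3%.

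The calls of these 3 small falls depended on the scaling, as did the direction of Ripk1 and Cyld, whereas Tradd kept its negative sign. TMM factors were 1.15 and 1.12 for the cisplatin libraries and 0.861 and 0.901 for the saline libraries, which lowers every cisplatin value relative to saline. As a plain share of the library total, Ripk1 held 59.3 and 53.3 CPM after cisplatin and 53.06 and 52.98 CPM after saline, and Cyld held 111 and 105 CPM after cisplatin and 101 and 98.9 CPM after saline. Tradd held 6.146 and 5.615 CPM after cisplatin and 6.098 and 6.526 CPM after saline, so its groups overlapped on that share. With library size alone the log2 fold change was 0.09 for Ripk1 (edgeR quasi-likelihood, adjusted p = 0.303), 0.11 for Cyld (adjusted p = 0.14) and -0.11 for Tradd (adjusted p = 0.571), so none of the 3 was called. On that scale 4 genes were called higher, Ripk3, Mlkl, Cflar and also Fadd (log2 fold change 0.37, adjusted p = 0.0185), and none lower, while of all tested genes 52.3% were called higher and 24.2% lower. Called genes were higher in 50.6% of cases with TMM, in 68.4% with library size alone and in 65.7% with limma-trend on log2(FPKM + 0.1). The median log2 fold change of all tested genes was 0.04 with TMM and 0.41 with library size alone. Measured from that median, Ripk1 lay at -0.32, Cyld at -0.30 with TMM and -0.29 with library size alone, Tradd at -0.51, Fadd at -0.04, Cflar at 0.20, Mlkl at 2.31 and Ripk3 at 2.80, the values being equal on both scales except for Cyld. A scaling shifts all genes by nearly the same amount, and subtracting the median removes that shift. The equality is therefore fixed by construction and is no check on the calls.

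**Figure D2:**
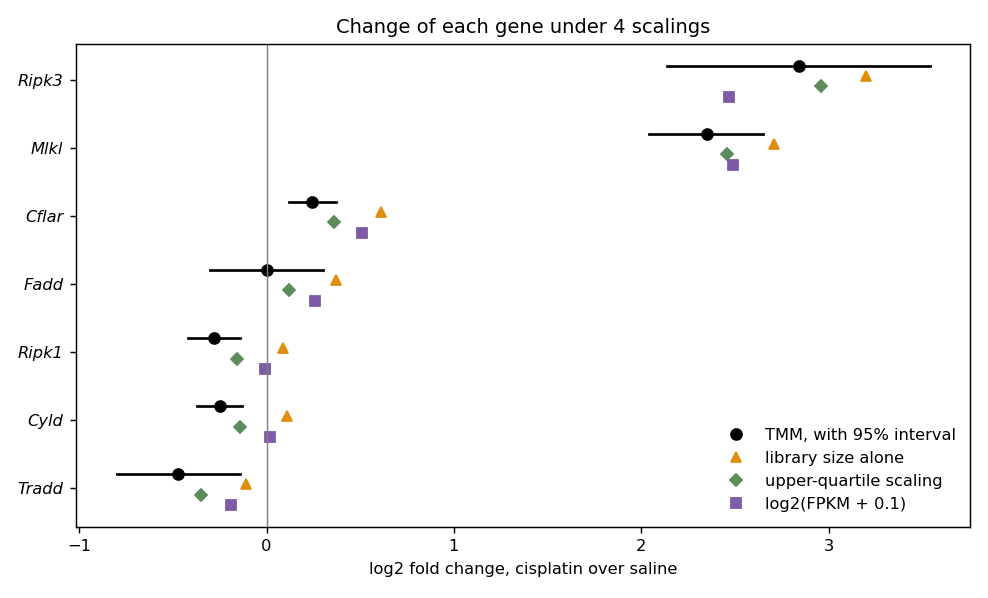
Log2 fold change of each gene, cisplatin over saline (horizontal axis), with TMM and its 95% interval, with 2 other scalings of the counts, and with limma-trend on log2(FPKM + 0.1). Ripk3 and Mlkl lie far to the right under all 4. Ripk1 and Cyld cross 0 when only the library size is used, and Cyld also does so, at 0.02, with log2(FPKM + 0.1).

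Levels were compared between genes on the deposited FPKM values, which divide by transcript length and by library depth. After cisplatin the order of the means was Cflar (24.9 FPKM), Cyld (8.23), Ripk1 (7.11), Mlkl (5.82), Tradd (2.13), Fadd (1.83) and Ripk3 (1.26). After saline the order was Cflar (17.4 FPKM), Cyld (8.13), Ripk1 (7.16), Tradd (2.44), Fadd (1.52), Mlkl (0.955) and Ripk3 (0.15). Neighbours in these orders did not overlap over the 2 libraries of a group. Mlkl thus stood in place 4 after cisplatin and in place 6 after saline. The length behind FPKM is not given, and with counts per kilobase of the exons annotated in GENCODE M21 Mlkl stood in place 3 after cisplatin (8.70 and 7.88 counts per exon kilobase, scaled as CPM), ahead of Ripk1 (7.11 and 6.39).

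**Figure D3:**
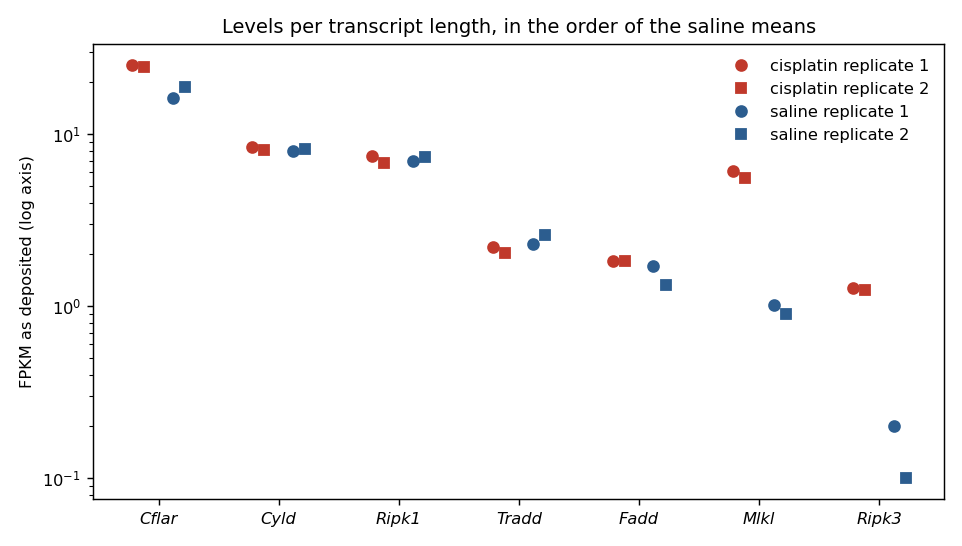
Deposited FPKM (log axis) of the 7 genes in each library, ordered by the saline mean. Mlkl lies at 5.55 to 6.09 FPKM after cisplatin and at 0.90 to 1.01 after saline, and Ripk3 at 1.24 to 1.28 FPKM after cisplatin and at 0.10 to 0.20 after saline.

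A ratio of 2 genes in the same library does not change with the scaling of that library, and the balance within the pathway was described this way. Mlkl stood at 0.816 and 0.821 of the Ripk1 level (FPKM) in the cisplatin libraries, against 0.145 and 0.123 in the saline libraries. Ripk3 stood at 0.172 and 0.183 of the Ripk1 level after cisplatin, against 0.0287 and 0.0136 after saline. These ratios were thus 6.12-fold and 8.39-fold higher on average after cisplatin. The second value is imprecise, since the saline ratio of Ripk3 to Ripk1 was 0.0211 ± 0.0106 (SD, n = 2) and rested on 13 and 8 counts of Ripk3. Cyld kept its proportion to Ripk1, with ratios of 1.13 and 1.19 after cisplatin and 1.15 and 1.12 after saline that overlap between groups. Tradd relative to Ripk1 was 0.298 and 0.302 after cisplatin and 0.330 and 0.353 after saline, lower in both cisplatin libraries. With 2 libraries a group, a 2-sided exact permutation test of a single ratio cannot go below p = 0.333, so these ratios carry no test.

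Ratios to 4 partners that themselves rose are given as levels. A ratio to a gene that rose more is lower by construction, so these values say nothing beyond the changes of the separate genes. Cflar stood at 1.83 and 1.81 times the Casp8 level after cisplatin, against 2.39 and 2.16 times after saline. Tradd stood at 0.0969 and 0.0876 of the level of the TNF receptor Tnfrsf1a after cisplatin, against 0.333 and 0.404 after saline. Fadd stood at 0.185 and 0.176 of the level of the death receptor Fas after cisplatin, against 0.489 and 0.377 after saline. Cyld stood at 1.11 and 1.14 times the level of Tnfaip3, another deubiquitinase of the TNF receptor complex, after cisplatin, against 8.72 and 8.58 times after saline. In all 4 of these ratios both cisplatin values lay below both saline values, as the choice of partners fixes.

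**Figure D4:**
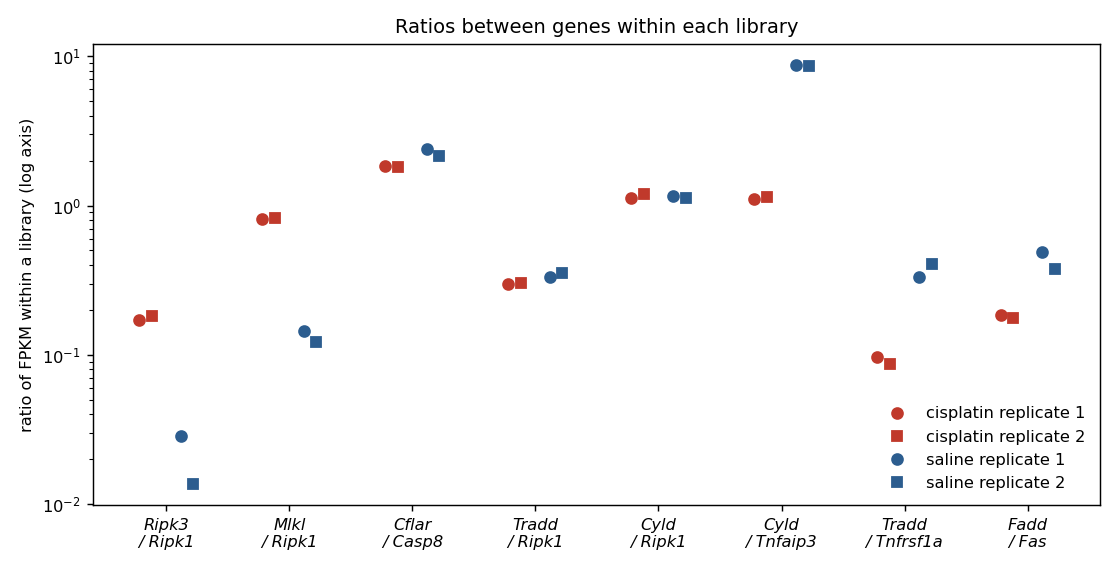
Ratio of FPKM between 2 genes within each library (log axis), cisplatin in red and saline in blue. Ripk3 and Mlkl relative to Ripk1 are higher in both cisplatin libraries, Cyld relative to Ripk1 overlaps, and Cyld, Tradd and Fadd relative to Tnfaip3, Tnfrsf1a and Fas are lower in both.

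The pathway around the 7 genes was read from 4 lists. They were chosen with earlier results of these data known, so their counts and medians are descriptions. The lists held 85 genes, 83 of them tested. Of these 48 rose, 21 fell and 14 did not pass on the TMM scale, with a median log2 fold change of 0.29, beside 0.04 for all tested genes. In all, 83.1% of them were called, beside 73.6% of all tested genes, where 37.2% were called higher and 36.4% lower. With library size alone, given below as a second scale, those shares of all tested genes were 52.3% higher and 24.2% lower. Among death receptors and their ligands 5 of 8 tested rose and 2 fell, and on library size alone 6 rose and 2 fell. The largest log2 fold change was that of the TRAIL receptor gene Tnfrsf10b, 4.19 (SE 0.12), while the ligand gene Tnf had 3.97 (SE 0.41). Tnf had 4 counts in each saline library, against 65 and 84 in the cisplatin libraries. It did not reach the filter after saline, so it entered the test through its cisplatin values. Its fold change thus rests on very few saline counts. Tnfrsf1b had 2.22 (SE 0.13), Tnfrsf1a 1.53 (SE 0.08) and Fas 1.26 (SE 0.10). Tnfrsf21, the death receptor DR6, fell, with -1.69 (SE 0.07), and so did Tnfsf10, the TRAIL ligand gene, with -1.03 (SE 0.06).

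Among the ubiquitin ligases, deubiquitinases and kinases of the TNF receptor complex 16 of 28 genes rose, 6 fell and 6 did not pass (median log2 fold change 0.24). Scaled by library size alone, 21 rose and 4 fell. Tnfaip3, which encodes the ubiquitin-editing enzyme A20, stood at 48.5 ± 1.73 CPM after cisplatin and 7.54 ± 0.285 CPM after saline (SD, n = 2), a log2 fold change of 2.69 (SE 0.10). Birc3 and Birc2, the cIAP ligases that ubiquitinate Ripk1, had log2 fold changes of 1.81 (SE 0.09) and 0.58 (SE 0.06), and their partner Traf2 had 0.82 (SE 0.13). Spata2, which anchors Cyld to the linear ubiquitin ligase complex, rose, with 0.47 (SE 0.11). Chuk, the kinase IKK-alpha, fell, at 120 ± 6.91 CPM after cisplatin and 324 ± 12.6 CPM after saline (log2 fold change -1.43, SE 0.06). The ligase gene Itch and the deubiquitinase gene Usp2 fell as well, with log2 fold changes of -1.40 (SE 0.06) and -1.98 (SE 0.07).

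Among inputs and regulators of the necrosome 15 of 26 genes rose, 7 fell and 4 did not pass (median log2 fold change 0.25). Scaled by library size alone, 19 rose and 4 fell. Zbp1, which can engage Ripk3 without a death receptor, had a log2 fold change of 2.65 (SE 0.18), and Tlr4, an endotoxin receptor, 1.51 (SE 0.10). Ticam1, the adaptor TRIF that binds Ripk3 and Ripk1 downstream of Toll-like receptors, did not pass, with 0.09 (SE 0.12). The chaperone gene Hsp90aa1 rose, at 971 ± 43.6 CPM after cisplatin and 377 ± 26.1 CPM after saline (SD, n = 2). Aurka, a mitotic kinase gene, had 1.22 (SE 0.30), and Trpm7, a cation channel gene, fell, with -1.27 (SE 0.06).

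Among other RIP kinases, death-fold proteins and apoptosis genes 12 of 21 rose, 6 fell and 3 did not pass (median log2 fold change 0.56). Scaled by library size alone, 13 rose and 3 fell. Ripk2, the family member that serves NOD receptors, did not pass, with a log2 fold change of 0.28 (SE 0.14). Pidd1, the death domain protein that p53 induces, had 2.54 (SE 0.24), and Cradd, the adaptor that joins it to caspase-2, fell, with -1.36 (SE 0.17). Nradd, a death domain gene, had 2.11 (SE 0.28), the apoptosome scaffold Apaf1 2.02 (SE 0.09) and Pea15a, a death effector domain gene, 1.56 (SE 0.06). The genes named here from these lists as having risen or fallen had Benjamini-Hochberg adjusted p of 0.00113 or less (edgeR quasi-likelihood), and the other genes in the counts had adjusted p under 0.05.

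**Figure D5:**
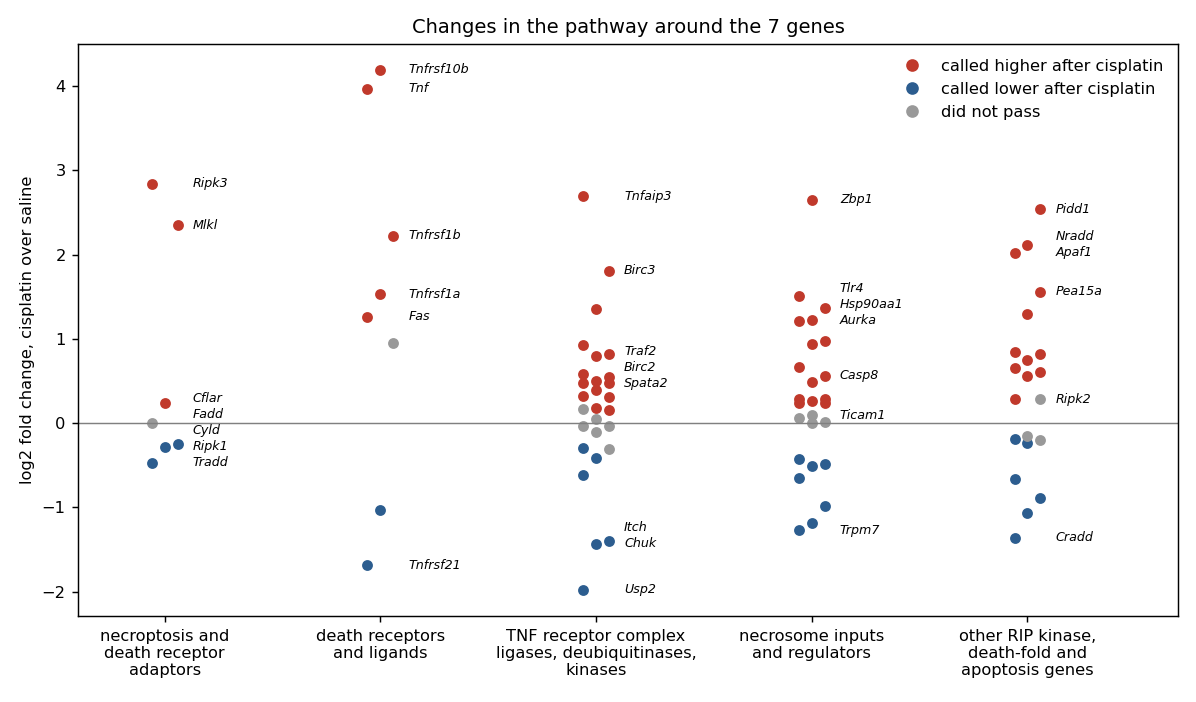
Log2 fold change (cisplatin over saline, TMM scale) of the 7 genes and of the tested members of the 4 pathway lists, coloured by call. Names are given for the 7 genes, the genes with the largest changes and the fixed partners. Ripk3 (2.84) and Mlkl (2.35) lie among the upper points, near Tnfaip3 (2.69) and Zbp1 (2.65), and the other 5 genes lie near 0.

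The pathway gene nearest in profile to each of the 7 was found by the distance over the 4 libraries between log2 CPM values centred on the saline mean, among 83 candidates. Ripk3 lay nearest to Zbp1 (distance 0.177) and Mlkl to Tnfrsf1b (0.232). Cflar lay nearest to Flot2 (0.0366), Cyld to Dstyk (0.0909), Ripk1 to Madd (0.108), Tradd to Ipmk (0.0796) and Fadd to Ticam1 (0.245). With 2 groups of 2 libraries this distance reflects mainly the size of the group difference.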

How the data were processed

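RNA-seq of mouse kidney was analysed from the raw counts that the authors deposited for each gene (29190 rows). The authors' deposited FPKM table (29157 rows) served for levels per length and as an alternative. Per the submitters' processing notes, GRCm38 was the build, and bcl2fastq, TopHat2 and edgeR were among the tools, with no versions. The sources used here do not name the counting program, say whether it used strand or split reads between similar genes, or give the annotation release and the length behind FPKM. Groups followed the treatment label, and the series' design text calls the libraries biological replicates. Nothing says that each library is a separate animal, so p-values refer to the spread between libraries. That spread was estimated in part from other genes, since each gene had 2 residual degrees of freedom and the test used a median of 18.8.

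Counts were tested across all 17419 genes kept by filterByExpr with TMM and the quasi-likelihood F test (edgeR 4.0.16, R 4.3.3), with Benjamini-Hochberg adjustment over all of them. The standard error was the log2 fold change divided by the square root of F. Alternatives used limma 3.58.1, DESeq2 1.42.0 and edgeR's glmTreat, each library left out, and other scalings and filters. The fits were first tested on simulated data. Coordinates came from GENCODE M21 (GRCm38), which held 99.2% of the deposited identifiers without version suffix, and promoters from RefSeq. Figures used matplotlib 3.10.9 in Python 3.11.15.

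The 7 genes and all lists were chosen with earlier results of these data known. Named genes were the 7, the 5 called genes with the largest change in each of 4 pathway lists, and 13 fixed partners. Tnfsf10 was named besides, as the ligand gene of a named receptor. Marker genes were named beside their list. A floor of 3 counts corresponds to 0.111 to 0.145 CPM.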

Additional observations from a re-analysis of the deposited data

How the results depend on the processing

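Under 15 alternative settings and 2 more chosen after seeing the data (without ribosomal RNA rows, and protein-coding genes alone), Ripk3 and Mlkl kept their direction and their call. Ripk3 entered the main test through its cisplatin values, so its kept call is no separate support. The log2 fold change of Ripk3 was 0.98 with log2(FPKM + 1) and 2.47 with log2(FPKM + 0.1), since the pseudocount of 1 exceeds its saline FPKM. The results that changed direction were Ripk1, at 0.09 with library size alone, and Cyld, at 0.11 with library size alone, 0.02 with log2(FPKM + 0.1) with or without the filter and 0.01 with log2(FPKM + 1). Fadd ranged from -0.25 to 0.37. Over all genes the number lower was 4207 with library size alone and 4171, 4172 and 3804 with the FPKM fits (pseudocount 0.1, pseudocount 1, and 0.1 without a filter), against 6333, and glmTreat against 1.5-fold gave 3805 higher and 3594 lower. The number of the 7 genes called lower was 0 under each of these 5 settings, against 3. For the scalings this follows from the TMM factors, and for glmTreat from the minimum change, while for the FPKM fits the cause was not tested. With the replicate number as a replicate block, 6382 genes were higher and 6271 lower, and the calls of the 7 genes were unchanged. The deviations of same-numbered libraries correlated at -0.021, so the numbers were not taken to pair the libraries. Depth limits Ripk3 most, at 8 to 13 saline counts, followed by Mlkl, at 68 and 73 saline counts.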

Other observations

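Further regulators of Ripk3, Mlkl and Zbp1 were picked by their known roles after their values were seen, and carry the tests already described. They are single values on the TMM scale, where 37.2% of all tested genes were called higher and 36.4% lower, and no statement is made about them as a group. Sdcbp, which encodes syntenin, stood at 363 ± 19.6 CPM after cisplatin and 228 ± 3.69 CPM after saline (SD, n = 2; log2 fold change 0.67, SE 0.06). Pdcd6ip, the ESCRT partner ALIX, reached 0.49 (SE 0.06) on the same scale, the ESCRT-III subunit gene Chmp4b 0.28 (SE 0.06), and the flotillin genes Flot1 and Flot2 0.24 (SE 0.08) each. Another ESCRT-III subunit gene, Chmp2a, did not pass, with 0.00 (SE 0.06). The inositol phosphate kinases that make the Mlkl ligand in human cells were not called higher. Itpk1 fell, at 6.43 ± 0.0364 CPM after cisplatin and 14.6 ± 1.04 CPM after saline (log2 fold change -1.19, SE 0.13), Ipmk fell with -0.43 (SE 0.06) although its groups overlapped as a share of the library total, and Ippk did not pass, with 0.06 (SE 0.10). Ppm1b, a phosphatase that acts on Ripk3, fell, at 71.9 ± 0.524 CPM after cisplatin and 142 ± 4.33 CPM after saline (log2 fold change -0.98, SE 0.06). Adar, the RNA editing enzyme that keeps Zbp1 from sensing cellular RNA, rose, with 1.21 (SE 0.07).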
